A study of Mus musculus with 27 samples.

Results

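The 10 choroid plexus genes described here mark the epithelium of that tissue and were followed across the 15 mRNA libraries of a study of mouse hippocampus. The genes were Ttr, Clic6, Cldn1, Enpp2, Kl, Folr1, Aqp1, Otx2, Sostdc1 and Calml4, found by symbol among 51826 features of the gene table, and all 10 were among the 19969 genes that passed the filter on low counts. The libraries came from hippocampi of ICR mice, an outbred stock, after ovariectomy (OVX, removal of the ovaries) or a sham operation. The mice received either xanthohumol (Xmo), a flavonoid that hops contain, or saline. The groups were sham saline (n = 3) and, with n = 4 in each, OVX saline, OVX Xmo and sham Xmo. The sources used here give no age, dose or duration of treatment. They also do not say whether each library came from 1 animal, so the p-values measure the spread between libraries, which may be technical.

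The choroid plexus is a fringe of vascular tissue that hangs into the brain ventricles. Its epithelium secretes cerebrospinal fluid and seals blood from that fluid with tight junctions. It lies against the hippocampus along the lateral ventricle but is not part of it, and a dissected hippocampus can carry a variable amount of it. Its epithelial cells make transthyretin in quantity, a carrier of thyroid hormone and of the retinol-binding protein, which makes Ttr a sensitive marker of this tissue.

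The libraries held between 20848661 and 39140593 gene counts. Mitochondrial genes took 20.2%, 35.4% and 25.5% of the counts in sham saline 1 to 3 and between 12.4% and 20.6% in the other groups, and the part of this in the group differences was not tested. Defining genes of hippocampal neurons were present throughout, with a summed level of the 8 listed genes between 759 and 982 CPM. Levels are in CPM (counts scaled to a common library total) with factors from the trimmed mean of M-values (TMM), as mean ± SD where groups are averaged, unless another unit is named. Several libraries stood apart in the choroid plexus genes. In sham Xmo 4 all 10 genes had their highest level of the 15 libraries. OVX Xmo 3 stood above the rest of its group in all 10 genes, and sham saline 1 above the rest of its group in 9 of 10, the exception being Cldn1. The results that rest on these libraries are given with and without them.

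Ttr spread more widely within sham Xmo (88.6-fold) and OVX Xmo (33.2-fold) than within sham saline (6.95-fold) and OVX saline (7.44-fold). It measured 1130.5, 403 and 163 CPM in sham saline 1 to 3, and 90.8, 1506, 1870.1 and 8049.8 CPM in sham Xmo 1 to 4. It measured 109, 88.8, 56.0 and 417 CPM in OVX saline 1 to 4, and 105, 214, 1653 and 49.8 CPM in OVX Xmo 1 to 4. The wide range of OVX Xmo rested on OVX Xmo 3, and its other libraries ran from 49.8 to 214 CPM, against 56.0 to 417 CPM in OVX saline. With sham Xmo 4 left out, sham Xmo still ran from 90.8 to 1870.1 CPM. Sham saline held 3 libraries, which can narrow its range. Each group held a library at or under 163 CPM, and all groups overlapped. The highest library was 162 times the lowest. As a share of all counts, Ttr took 0.864% of sham Xmo 4 (exact 95% interval 0.861% to 0.867%) and 0.00493% of OVX Xmo 4 (0.00467% to 0.00520%), intervals that cover counting error only. In bulk tissue, fewer cells of a type and less RNA per cell cannot be told apart.

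Enpp2 encodes autotaxin, the secreted enzyme that makes lysophosphatidic acid, and oligodendrocytes express it too. Its levels were 546, 196 and 168 CPM in sham saline, against 231, 724, 706 and 2365 CPM in sham Xmo. They were 198, 204, 183 and 275 CPM in OVX saline and 166, 244, 621 and 165 CPM in OVX Xmo. The libraries high in Ttr were high in Enpp2, but over a range of 14.3-fold, and no library fell under 165 CPM. The summed oligodendrocyte list lay between 3379 and 6275 CPM and was 4122 CPM in sham Xmo 4.

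Kl encodes klotho, a co-receptor of FGF23 that is also shed into blood and cerebrospinal fluid. It measured 54.7, 23.9 and 25.7 CPM in sham saline, against 17.1, 44.0, 51.2 and 145 CPM in sham Xmo. It measured 19.4, 16.9, 13.9 and 22.9 CPM in OVX saline and 17.2, 20.6, 51.9 and 18.4 CPM in OVX Xmo. All 4 OVX saline libraries lay below the 3 of sham saline. Sostdc1, a secreted antagonist of BMP and Wnt signals, measured 10.1, 2.59 and 2.96 CPM in sham saline, against 1.25, 10.01, 7.42 and 26.9 CPM in sham Xmo. Sostdc1 measured 2.25, 1.90, 1.66 and 3.74 CPM in OVX saline and 1.89, 2.36, 7.26 and 1.49 CPM in OVX Xmo. Its lowest library of all was sham Xmo 1, in the group with the highest mean.

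Transport proteins of the epithelium showed the same libraries at the top. Clic6, a chloride intracellular channel family member, measured 19.9, 8.31 and 7.72 CPM in sham saline, against 4.23, 17.6, 16.3 and 59.3 CPM in sham Xmo. Clic6 measured 2.58, 2.34, 2.34 and 3.90 CPM in OVX saline and 2.54, 3.65, 18.6 and 2.57 CPM in OVX Xmo. All OVX saline libraries lay below all sham saline libraries. Aqp1, the apical water channel, measured 4.33, 2.69 and 0.862 CPM in sham saline, against 0.779, 5.31, 7.55 and 24.5 CPM in sham Xmo. Aqp1 measured 0.927, 1.15, 0.521 and 1.504 CPM in OVX saline and 0.351, 0.618, 6.62 and 0.149 CPM in OVX Xmo, where the lowest value rests on 4 counts. Its range of 164-fold was like that of Ttr. Folr1, the folate receptor that carries folate into cerebrospinal fluid, measured 5.34, 2.83 and 0.821 CPM in sham saline, against 1.02, 10.7, 11.3 and 39.2 CPM in sham Xmo. Folr1 measured 1.05, 0.815, 0.781 and 3.54 CPM in OVX saline and 0.836, 1.66, 8.35 and 0.522 CPM in OVX Xmo. Folr1 overlaps Anapc15, with 5863 counts over the libraries against 3075 for Folr1, and the sources do not say if strand was used in counting, so Folr1 is uncertain.

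Cldn1, a tight junction claudin, followed the other genes least closely. It measured 5.27, 3.03 and 5.42 CPM in sham saline, against 1.80, 5.33, 4.54 and 18.2 CPM in sham Xmo. It measured 1.18, 1.66, 1.11 and 1.99 CPM in OVX saline and 5.07, 1.71, 5.71 and 2.69 CPM in OVX Xmo. Sham saline 3 and OVX Xmo 1 were high in Cldn1 with only 163 and 105 CPM of Ttr. Calml4, a calmodulin-like protein, measured 4.401, 1.87 and 2.05 CPM in sham saline, against 2.68, 5.11, 7.17 and 19.5 CPM in sham Xmo. Calml4 measured 2.18, 1.73, 1.01 and 2.07 CPM in OVX saline and 1.97, 1.43, 5.26 and 1.23 CPM in OVX Xmo. Calml4 overlaps Gm10653, which held 194 counts over the libraries against 1993 for Calml4.

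Otx2 encodes a homeodomain transcription factor that specifies and maintains choroid plexus epithelium. It measured 8.59, 5.52 and 2.26 CPM in sham saline, against 3.83, 9.01, 8.11 and 26.3 CPM in sham Xmo. It measured 1.48, 1.63, 2.70 and 5.001 CPM in OVX saline and 2.56, 2.89, 7.26 and 1.94 CPM in OVX Xmo. Because OTX proteins bind the core TAATCC, the 250 bases before each annotated start were read for TAATCC on both strands (GGATTA on the other strand, with no overlap of other motifs considered). RefSeq promoter windows (GRCm38.p6) were used for 5 genes, Kl, Aqp1, Calml4, Otx2 and Cldn1, in 8 windows. Several of these windows were of Otx2, in part overlapping. Ttr, Clic6, Enpp2, Folr1 and Sostdc1 were not read. Of the 8 windows 1 held the core, before an internal start of Otx2, against 6.25% of all 32851 windows. That window, and that of Aqp1 for contrast, are shown 5′ to 3′ on the gene's strand, with the match in capitals.
Otx2, chr14:48665110-48665359, minus strand: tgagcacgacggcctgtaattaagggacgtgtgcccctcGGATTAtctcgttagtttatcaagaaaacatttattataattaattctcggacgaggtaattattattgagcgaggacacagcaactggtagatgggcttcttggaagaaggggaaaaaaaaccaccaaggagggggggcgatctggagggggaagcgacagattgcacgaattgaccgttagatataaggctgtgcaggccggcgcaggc
Aqp1, chr6:55336049-55336298, plus strand: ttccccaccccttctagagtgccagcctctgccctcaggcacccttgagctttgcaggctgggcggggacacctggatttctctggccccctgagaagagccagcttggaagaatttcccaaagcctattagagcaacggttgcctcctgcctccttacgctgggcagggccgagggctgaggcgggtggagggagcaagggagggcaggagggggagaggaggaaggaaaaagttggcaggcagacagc
The match in Otx2 began 211 bases before that start, and none lay in the Aqp1 window. A match is a string of letters and no measured binding site.

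**Figure D1:**
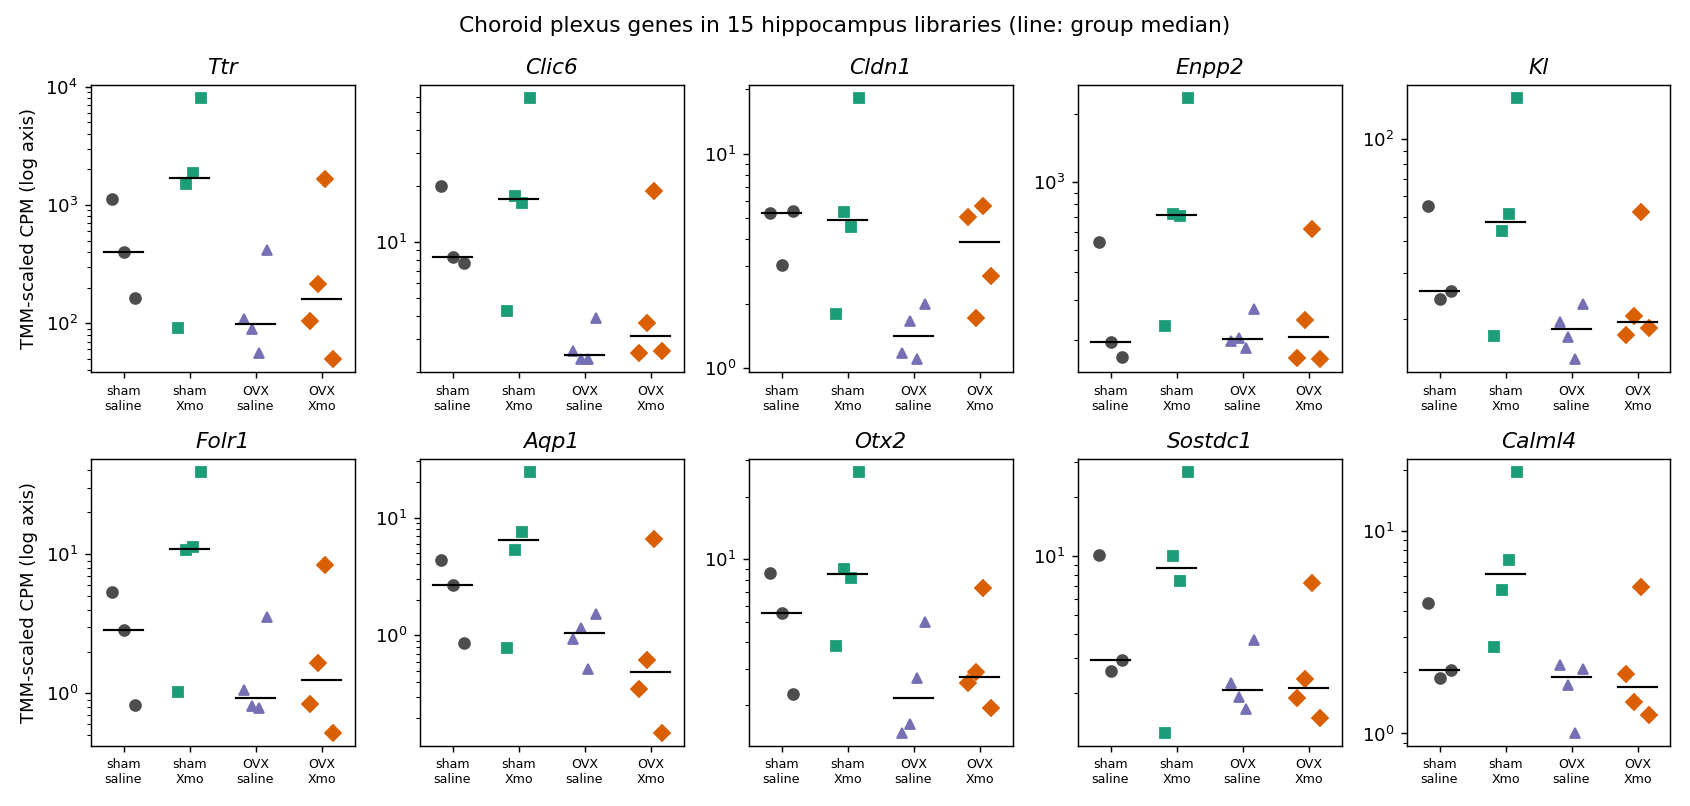
Level of each of the 10 genes in TMM-scaled CPM (log axis) by group, with 1 point per library and a line at the group median. The uppermost sham Xmo point in every panel is sham Xmo 4 (8049.8 CPM of Ttr), and the single high OVX Xmo point in most panels is OVX Xmo 3 (1653 CPM of Ttr).

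The mean levels stood in the same order in all 10 genes, with sham Xmo first, then sham saline, OVX Xmo and OVX saline. For Ttr these means were 2879 ± 3531, 565 ± 504, 505 ± 768 and 168 ± 168 CPM (SD, n = 4, 3, 4 and 4). Neighbouring groups in this order overlapped in every gene, and the SD exceeded the mean of Ttr in sham Xmo and OVX Xmo. By group medians the order was the same in 6 of 10 genes. The order of means also rested on single libraries. In the edgeR fit without OVX Xmo 3, 7 of 10 genes were lower in OVX Xmo than in OVX saline. In that without sham Xmo 4, Cldn1 was lower in sham Xmo than in sham saline (log2 change −0.25). The 10 genes move together, so their shared order is not 10 separate findings. Compared per transcript length, in the length-scaled transcript units (TPM) that the authors deposited, Ttr was the most abundant of the 10 in 12 of 15 libraries, from 71.9 to 12715 TPM with a median of 314 TPM. Enpp2 had a median of 137 TPM and exceeded Ttr in the other 3, with 104 against 71.9 TPM in OVX Xmo 4, 127 against 91.1 TPM in OVX saline 3 and 137 against 122 TPM in sham Xmo 1. The other 8 genes had medians between 0.822 TPM (Aqp1) and 6.65 TPM (Kl).

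The spread between libraries of one group was large beside that of other genes. The within-group SD of log2 CPM was 2.01 for Ttr, which ranked 57 of 19969 genes, and 0.26 for the median gene. Aqp1 (1.65) and Folr1 (1.62) ranked 127 and 140. The lowest was that of Kl at 0.83, rank 1588, so all 10 genes lay among the 8% of genes that varied most within groups (7.95% for Kl).

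Whether the genes moved together inside a group was tested with the level of Ttr as a covariate beside the group means, so that only the spread within groups counted. The slope is the log2 change of a gene per log2 unit of Ttr. Of the 9 genes other than Ttr, 8 rose with Ttr within groups, against 0.366% of all 19968 genes that rose and 0.015% that fell (edgeR quasi-likelihood test with Benjamini-Hochberg adjustment). Aqp1 and Folr1 moved nearly in step with Ttr, with slopes of 0.83 (SE 0.07, edgeR adjusted p = 7.81e-06) and 0.82 (SE 0.03, edgeR adjusted p = 5.73e-09). Sostdc1 and Clic6 followed at 0.58 and 0.56, Enpp2 at 0.45, Otx2 at 0.42, Calml4 at 0.40 and Kl at 0.39. Cldn1 had the lowest slope, 0.32 (SE 0.09), and did not pass (edgeR adjusted p = 0.147, and 0.0140 in DESeq2). The 8 genes passed in each of the 15 fits that left out 1 library. Without sham Xmo 4 the slopes were 0.84 for Aqp1, 0.82 for Folr1 and 0.38 for Otx2 (edgeR adjusted p = 0.0264 for Otx2), while Cldn1 had 0.20 (edgeR adjusted p = 0.464). In the converse fit, with the mean of 38 other choroid plexus genes as the covariate, Ttr rose by 2.01 per log2 unit of that mean (SE 0.12, edgeR adjusted p = 6.55e-07).

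**Figure D2:**
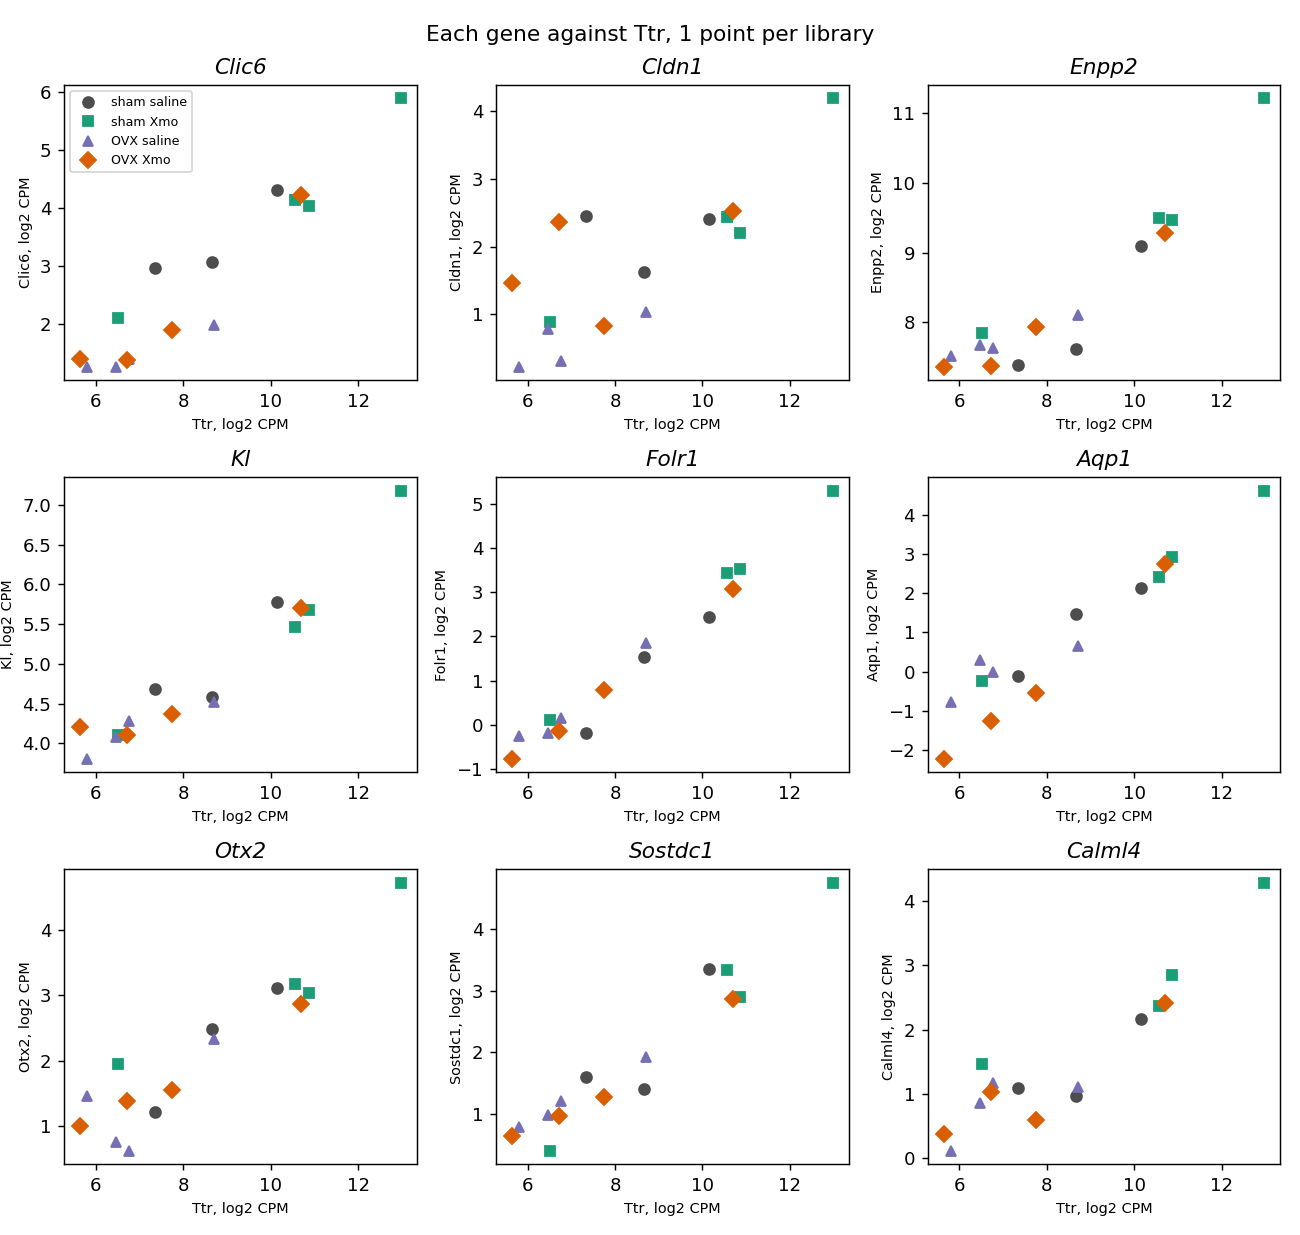
Log2 CPM of each of the other 9 genes against log2 CPM of Ttr, with 1 point per library and the group shown by colour and shape. Libraries of all 4 groups lie along one band in Aqp1 and Folr1 (slopes 0.83 and 0.82), Clic6 of sham saline lies above the low OVX points, and Cldn1 scatters most (slope 0.32).

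On the linear scale, a straight line of each gene on Ttr over the 15 libraries gave the amount that came with 1000 CPM of Ttr and a fitted level at zero Ttr. Enpp2 came at 276 CPM per 1000 CPM of Ttr above a level of 174 CPM. Without sham Xmo 4 the values were 314 and 155 CPM. Kl came at 16.1 CPM above 19.1 CPM. Clic6 came at 7.11 CPM above 3.92 CPM, and Folr1 at 4.85 CPM above 0.776 CPM. Without sham Xmo 4 these were 21.1 above 16.6 CPM for Kl, 9.53 above 2.70 CPM for Clic6 and 5.64 above 0.376 CPM for Folr1. Over the 15 libraries the fitted level lay above the lowest measured library, at 105% of it for Enpp2, 137% for Kl, 167% for Clic6 and 149% for Folr1, so it is not a measured level without choroid plexus. Fitted in each group alone, the amount of Enpp2 was 412 and 242 CPM with saline in the sham and OVX groups, and 264 and 282 CPM with xanthohumol in the same order. That of Folr1 was 4.39 and 7.93 CPM with saline, and 4.64 and 4.81 CPM with xanthohumol. That of Clic6 was 13.4 and 4.45 CPM with saline, and 6.79 and 10.3 CPM with xanthohumol. These lines rest on 3 or 4 points and were not tested against each other.

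A wider list of other choroid plexus genes, chosen with earlier results of these data known, was tested in the same model. Of its 38 genes, all tested, 25 rose with Ttr within groups, 0 fell and 13 did not pass, with a median slope of 0.48 against 0.00 over all genes tested. The 4 with the smallest p were F5, which encodes coagulation factor V (0.75), the potassium channel gene Kcnj13 (0.85), Tmem72 (1.07) and 1500015O10Rik (0.71). F5 ranged from 1.497 to 78.8 CPM and Kcnj13 from 0.485 to 65.9 CPM. The 21 partner genes of the 10 were carriers, receptors and enzymes of thyroid hormone, retinol, lysophosphatidic acid, FGF23, BMP and Wnt signals, water and folate. Bmp7 had a slope of 0.18, Folr2 of 0.30 and Lpar4 of −0.14, with edgeR adjusted p from 0.176 to 0.185. The median slope of the 21 partners was 0.03.

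The slopes of other tissues were taken from further lists. Of 18 ependymal genes, 3 rose with Ttr and 15 did not pass (median slope 0.19), with Cfap126 at 0.22, Cfap65 at 0.21 and the cilium regulator Foxj1 at 0.18, while Hydin had 0.23 (edgeR adjusted p = 0.0544). The 18 meningeal fibroblast genes had 0 past edgeR's test, 5 at an unadjusted p under 0.05 and a median of 0.10, with the proteoglycan gene Ogn at 0.15 (edgeR adjusted p = 0.102). None of 13 endothelial, 8 blood, 10 oligodendrocyte, 8 hippocampal neuron and 11 tested thalamus and habenula genes passed in edgeR, with 2, 0, 1, 1 and 0 at an unadjusted p under 0.05. Their median slopes were 0.03, 0.24, −0.04, 0.02 and −0.02. In all, 73 genes rose with Ttr and 3 fell. The split was nearer to even in DESeq2 (207 up, 137 down) and in edgeR without OVX Xmo 1 (87 up, 78 down). In the other edgeR fits tried 90.5% or more of the called genes rose. Of the 76, 0 passed in any of the 5 group comparisons. In the order given below, these called 6.24%, 0%, 1.51%, 0.01% and 0.416% of all genes. The 76 were picked for spread within groups, which widens the error of a group comparison, so this 0 is no result about a response. The 3 that fell were Dcx (−0.13), Rap1a (−0.14) and Gm36989 (−0.30), named after their values were seen.

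The genes most like the 10 were found by the Pearson correlation of log2 CPM with the mean of the 10 over the 15 libraries, which is given as a description. Lbp (0.99), Sulf1 (0.99), Drc7 (0.99), Kcnj13 (0.98), Kcne2 (0.98), Col8a1 (0.97), F5 (0.97), Tmem72 (0.96), Slc4a5 (0.96) and 1500015O10Rik (0.96) came first of 19959 genes. All points share the same 15 libraries. Of these 10, 9 were in the wider choroid plexus list, the exception being Drc7, and the first 100 held 27 of its 38 genes. That list was chosen with earlier results of these data known, so the overlap is not separate support.

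**Figure D3:**
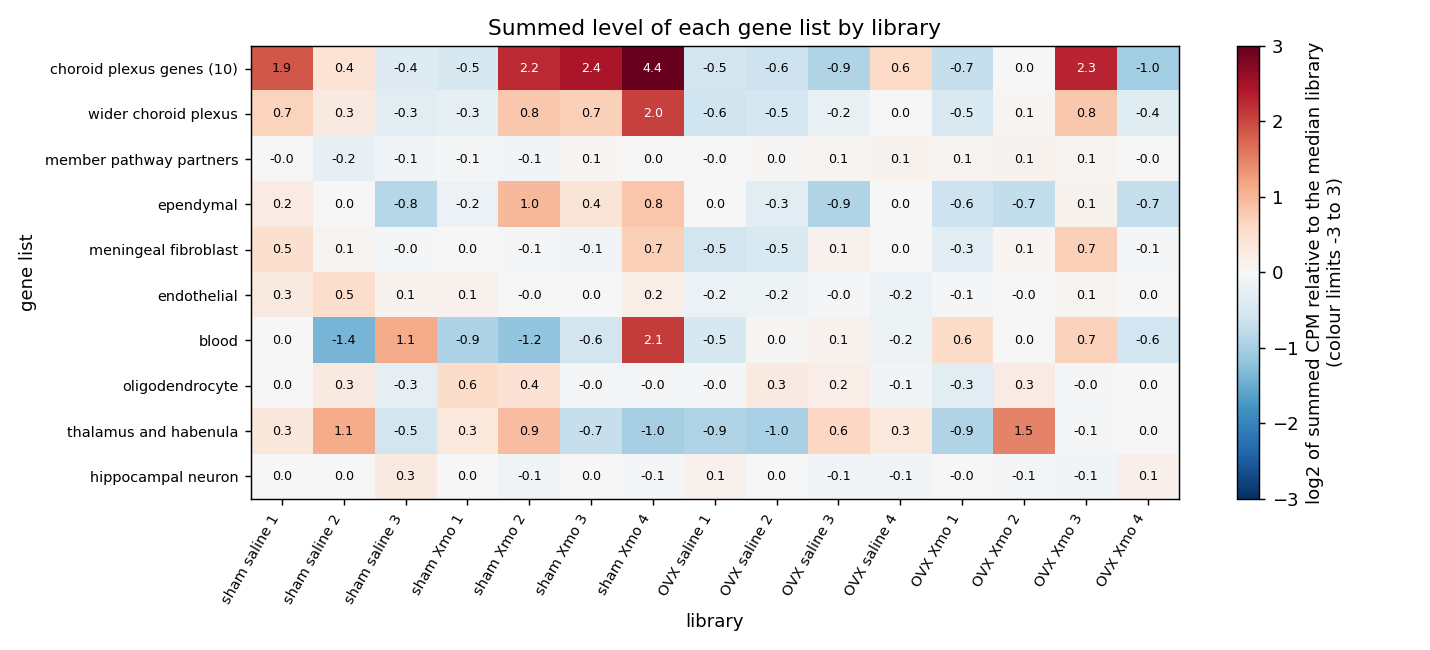
Summed CPM of each gene list in each library, as the log2 ratio to the median library of that list. The 10 genes and the wider list are high in the same 5 libraries (sham saline 1, sham Xmo 2, 3 and 4, and OVX Xmo 3), while the hippocampal neuron list lies between 759 and 982 CPM in all libraries.

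The summed levels show which other tissues were high in the same libraries. The 10 genes summed to between 244 CPM in OVX Xmo 4 and 10773 CPM in sham Xmo 4, and the wider list to between 221 and 1389 CPM. Ependymal genes summed to between 44.8 and 166 CPM, with their highest levels in sham Xmo 2 (166 CPM) and sham Xmo 4 (151 CPM). Meningeal fibroblast genes were highest in OVX Xmo 3 (315 CPM), sham Xmo 4 (313 CPM) and sham saline 1 (265 CPM), from a lowest level of 131 CPM. Blood genes, which include the haemoglobins, were highest in sham Xmo 4 (4926 CPM) but reached 2460 CPM in sham saline 3, where Ttr was low. The thalamus and habenula list was highest in OVX Xmo 2 (962 CPM) and lowest in sham Xmo 4 (174 CPM). Their part in the group differences below was not tested.

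OVX saline was set against sham saline, which addresses ovariectomy without xanthohumol. All 10 genes had lower values after ovariectomy, and none passed in edgeR, where 6.24% of all 19969 genes were called, 3.65% higher and 2.59% lower. The median log2 change was −1.09, against 0.01 over all genes tested. Ttr changed from 565 ± 504 to 168 ± 168 CPM (log2 change −1.76, SE 1.23; edgeR adjusted p = 0.400). The lowest change was that of Clic6, from 11.98 ± 6.87 to 2.79 ± 0.749 CPM (log2 change −2.11, SE 0.79; edgeR adjusted p = 0.113). The highest was that of Enpp2 (−0.50, SE 0.63; edgeR adjusted p = 0.671). Values without overlap between the groups were found in Clic6, Cldn1 and Kl, 3 of 10 genes, against 11.6% of all genes lower and 12.9% higher without overlap. In the gene table (GRCm38.p6) Clic6 (ENSMUSG00000022949) lies at chr16:92485736-92541243, Cldn1 (ENSMUSG00000022512) lies at chr16:26356642-26371841 and Kl (ENSMUSG00000058488) at chr5:150952607-150993817. At an unadjusted p under 0.05 there were 2 of 10, Clic6 and Cldn1, against 4927 of 19969 genes. Clic6 and Cldn1 both passed when only these 2 groups were fitted (Clic6 −2.11, edgeR adjusted p = 0.0217, and Cldn1 −1.64, edgeR adjusted p = 0.0227). That fit called 1202 genes in all. Cldn1 also passed in DESeq2 (adjusted p = 0.0323), which called 2322 genes. It passed too in edgeR without sham Xmo 4 (adjusted p = 0.0426), where 1082 genes were called. Without sham saline 1 the median was −0.49, Ttr had −0.76 and Enpp2 had 0.24, and without OVX saline 4 Ttr had −2.76. None of the 38 wider choroid plexus genes or the 21 partners passed (medians −0.93 and 0.09; 5 and 2 at an unadjusted p under 0.05). In the same contrast 3 of 13 endothelial genes fell, Sox17 (−1.20), Flt1 (−0.54) and Ly6c1 (−1.44), as did 2 of 8 blood genes, S100a9 (−6.42) and Ngp (−5.20), and the part of these cells in the values of the 10 genes was not tested.

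OVX Xmo was set against OVX saline, which addresses xanthohumol given to ovariectomised mice. All 10 genes had higher values with xanthohumol, and none passed in edgeR, where 0% of genes were called, nor in DESeq2. The median was 0.71, against 0.00 over all genes tested. Cldn1, 1 of 10, had an unadjusted p under 0.05, against 834 of 19969 genes. Ttr had the highest change, 1.59 (SE 1.16; edgeR adjusted p = 0.998), and Sostdc1 the lowest, 0.43 (SE 0.73; edgeR adjusted p = 0.998). The level of Cldn1 was 3.80 ± 1.90 CPM with xanthohumol and 1.49 ± 0.419 CPM with saline. The direction of most genes rested on OVX Xmo 3. Without it, 7 of 10 genes had lower values with xanthohumol, the median was −0.17, Ttr had −0.45 and Sostdc1 −0.31. Without OVX saline 4 Ttr had 2.56. None of the 10 genes had groups without overlap, against 1.39% of all genes higher and 1.72% lower. None of the wider genes or partners passed (medians 0.79 and 0.01; 1 and 1 at an unadjusted p under 0.05). Meningeal fibroblast genes had a median of 0.43, with 17 of 18 above 0 and 0 past the test, and their part was not tested.

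Sham Xmo was set against sham saline, which addresses xanthohumol without ovariectomy. All 10 genes had higher values with xanthohumol and none passed in edgeR, where 1.51% of genes were called, 0.721% higher and 0.791% lower, nor in DESeq2. The median was 1.37, against 0.03 over all genes tested. An unadjusted p under 0.05 was found for 3 of 10 (Enpp2, Folr1 and Calml4), against 3684 of 19969 genes. Folr1 had the highest change, from 2.9998 ± 2.27 to 15.5 ± 16.4 CPM (2.36, SE 1.06; edgeR adjusted p = 0.247). Ttr had 2.35 (SE 1.33; edgeR adjusted p = 0.367) and Cldn1 the lowest, 0.71 (SE 0.59; edgeR adjusted p = 0.558). Groups overlapped in all 10 genes, against 8.89% of all genes higher and 5.33% lower without overlap, since sham Xmo 1 lay within or below the sham saline range in every gene. Without sham Xmo 4 the median was 0.56, Ttr had 1.02 and Folr1 1.33, while Cldn1 had −0.25. Without sham saline 1 the median was 2.09 and Folr1 had 3.11. None of the wider genes or partners passed (medians 1.23 and 0.11; 12 and 2 at an unadjusted p under 0.05). All 18 ependymal genes also had higher values, with a median of 0.79 and 0 past the test, and their part was not tested. Of the other lists, Flt1 (−0.55) and S100a9 (−3.44) fell and the myelin gene Mog rose (0.70).

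OVX Xmo was set against sham Xmo, a contrast that does not use the level of sham saline. All 10 genes had lower values after ovariectomy and none passed in edgeR, where 0.01% of genes were called, 0.00501% higher and 0.00501% lower, nor in DESeq2. At an unadjusted p under 0.05 there were 8 of 10, against 2027 of 19969 genes. The 10 genes move together over the libraries, so these 8 are not separate findings. The median was −1.83, against −0.02 over all genes tested. Ttr had the lowest change, −2.51 (SE 1.196; edgeR adjusted p = 0.497), and Cldn1 the highest, −0.99 (SE 0.54; edgeR adjusted p = 0.555). Groups overlapped in all 10 genes, against 2.89% of all genes higher and 2.99% lower without overlap. Without sham Xmo 4 the median was −0.97, Ttr had −1.22 and Cldn1 −0.06. Without OVX Xmo 3 the median was −2.52 and Ttr had −4.55. None of the wider genes or partners passed (medians −1.48 and −0.10; 20 and 3 at an unadjusted p under 0.05). The ependymal list had 18 of 18 genes below 0 with a median of −1.17, none past the test and 14 at an unadjusted p under 0.05, and its part was not tested.

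The interaction asked whether the effect of xanthohumol differed between OVX and sham mice, and it was tested as the first effect minus the second. None of the 10 genes passed in edgeR or DESeq2. In edgeR 0.416% of genes were called, 0.27% higher and 0.145% lower. None of the 10 had an unadjusted p under 0.05, against 3470 of 19969 genes. Ttr had −0.76 (SE 1.68; edgeR adjusted p = 0.859), Cldn1 the highest value, 0.65 (SE 0.81; edgeR adjusted p = 0.726), and Folr1 the lowest, −1.502 (SE 1.42; edgeR adjusted p = 0.629). The median of −0.72 became 0.13 without sham Xmo 4, −1.60 without sham saline 1 and −1.59 without OVX Xmo 3. Ttr had 0.56 without sham Xmo 4, 0.24 without OVX saline 4, −1.76 without sham saline 1 and −2.77 without OVX Xmo 3. Folr1 had −0.48 without sham Xmo 4 and −2.91 without OVX Xmo 3, and Cldn1 had 1.59 without sham Xmo 4. None of the wider genes or partners passed (medians −0.53 and −0.13; 0 and 2 at an unadjusted p under 0.05). Of the other lists 1 blood gene passed, S100a9 (7.16; edgeR adjusted p = 0.0354). The ependymal list had 18 of 18 genes below 0 with a median of −1.04, none past the test and 5 at an unadjusted p under 0.05, and the part of these cells was not tested. These comparisons share libraries with each other, so the directions of the 10 genes in them are not independent. Within each comparison the 10 genes move together, so counts of them are not counts of separate findings.

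**Figure D4:**
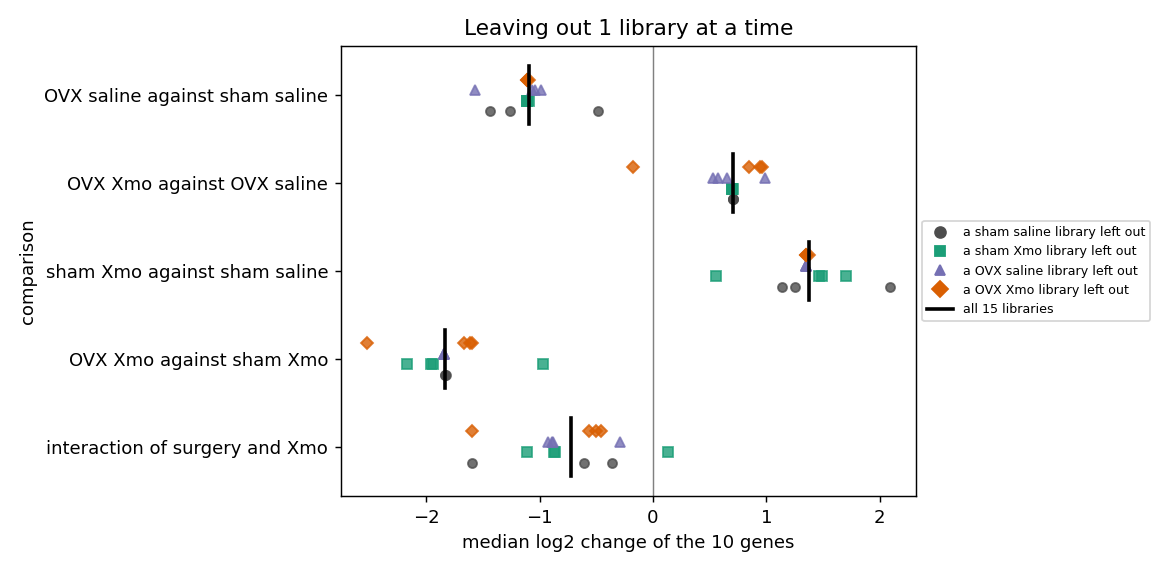
Median log2 change of the 10 genes in each comparison, with a black line for all 15 libraries and a point for each fit without 1 library, coloured by the group of that library. The median of OVX Xmo against OVX saline turns from 0.71 to −0.17 without OVX Xmo 3, and that of the interaction from −0.72 to 0.13 without sham Xmo 4.

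The group changes were then fitted with the choroid plexus level of each library held fixed, by adding the mean log2 CPM of the wider list (38 genes, none of the 10) as a covariate. In OVX saline against sham saline the median of the 10 genes moved from −1.09 to −0.03, with 5 of 10 above 0. In OVX Xmo against OVX saline it moved from 0.71 to −0.14, in sham Xmo against sham saline from 1.37 to −0.25, and in OVX Xmo against sham Xmo from −1.83 to −0.23. With the covariate the 10 genes ran from −0.99 (Aqp1) to 1.06 (Cldn1) in OVX Xmo against OVX saline. Ttr moved from −1.76 to −0.06 (SE 0.29) in OVX saline against sham saline and from 2.35 to −0.41 in sham Xmo against sham saline. Clic6 fell in OVX saline against sham saline with the covariate in the model (−1.07, SE 0.21, edgeR adjusted p = 0.00879). Of all 19969 genes, 2526 passed in that fit, 1266 higher and 1260 lower. Cldn1 had −1.17 there (SE 0.45; edgeR adjusted p = 0.1). None of the 10 genes passed with the covariate in any of the other 4 comparisons. Of all genes, 15 were called higher and 44 lower in sham Xmo against sham saline, and 57 higher and 29 lower in the interaction. In the comparisons of OVX Xmo with OVX saline and with sham Xmo, 0 genes were called. The covariate was measured in the same libraries and its group means were not equal, so a change that all choroid plexus genes share is taken out of these values whatever its source.

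**Figure D5:**
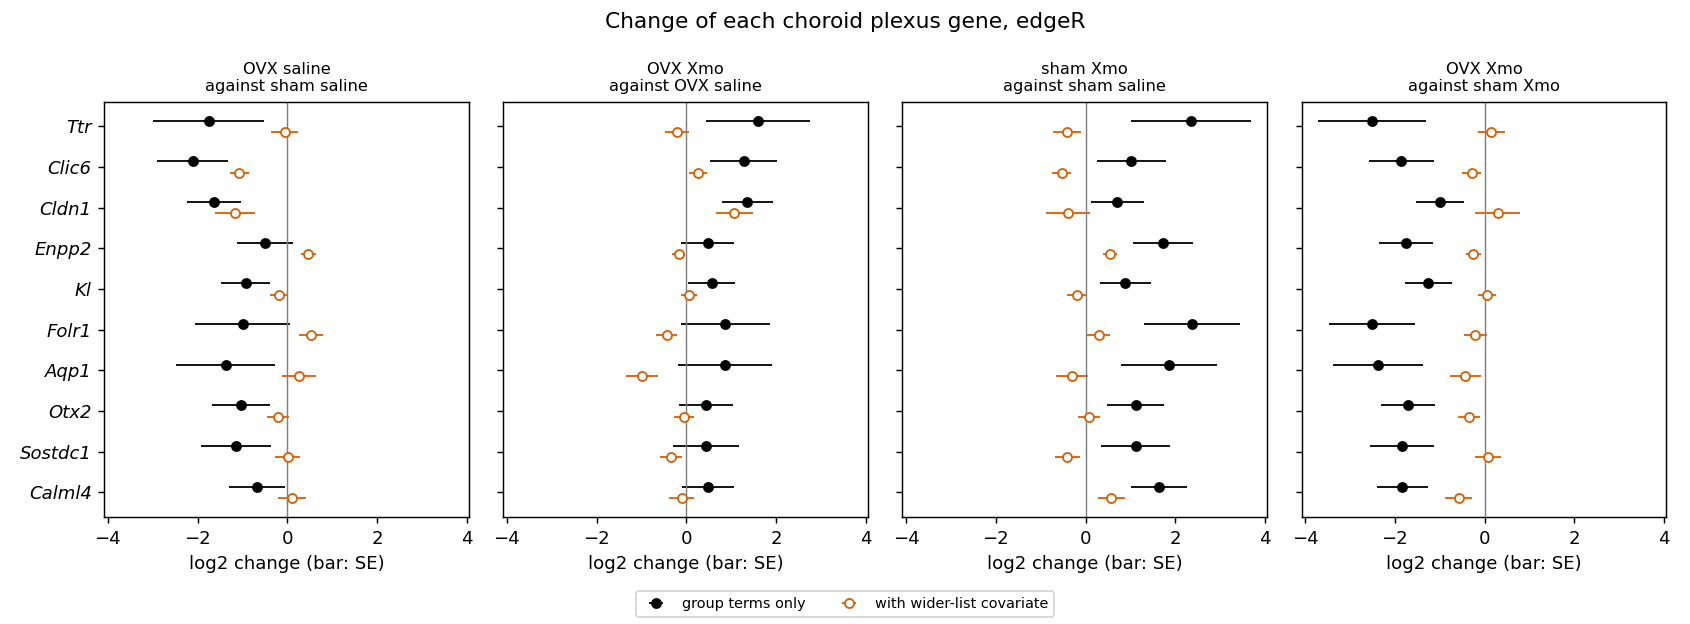
Log2 change of each of the 10 genes in 4 comparisons, with bars of 1 SE, from the model with group terms only (filled) and with the mean of the wider choroid plexus list added (open). The filled points lie on one side of 0 in each panel, and the open points lie on both sides of 0, from −1.17 (Cldn1) in OVX saline against sham saline to 1.06 (Cldn1) in OVX Xmo against OVX saline.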

How the data were processed

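RNA from mouse hippocampus was sequenced in 15 mRNA libraries. Per the submitters' processing notes the build was GRCm38.p6 and the tools included StringTie 1.3.3b and Bowtie2 2.3.2 (besides Trimmomatic 0.36 and FastQC 0.11.2), but the notes give them no role. The authors deposited whole-number counts and TPM per gene and library, per the file headers. Another 12 columns, of 4 libraries, could be matched to no sample and were left out. The miRNA libraries were not analysed here.

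Counts, 20848661 to 39140593 per library, were filtered with filterByExpr (19969 genes kept), scaled by TMM and fitted with edgeR's quasi-likelihood model on 4 groups (11 residual degrees of freedom). Benjamini-Hochberg adjustment ran over all genes of a comparison, at 0.05. A second model added log2 CPM (prior count 2) of Ttr to the group means, without testing Ttr itself. The SE is the size of the log2 change over the root of F. The fits were also run on simulated counts with planted changes, drawn separately for each gene, and the outcome is not reported here.

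The 10 genes and the lists were chosen with earlier results of these data known. All 10 genes are named, from each list at most 4 genes by smallest p in the slope test and up to 4 that pass a comparison, the 10 genes most like the mean of the 10, and full statistics are printed for Ttr and the highest and lowest change of each comparison. The slope result of a partner gene is not reported here. Alternatives were RLE factors, library totals, DESeq2, no filter, a replicate block, mitochondrial genes left out, a choroid plexus covariate, fits of 2 groups and each library left out. Software was R 4.3.3, edgeR 4.0.16 and DESeq2 1.42.0.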

Additional observations from a re-analysis of the deposited data

Results flagged for a closer look

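A library was noted where its gap to the nearest other library of its group of 4 took over 0.829 of the group's range (Dixon's 95% value). Chance gives this in about 1 of 20 groups if the values are normally distributed. The rule was run on CPM without a log, so that rate need not hold here. On the log2 scale Ttr had 6.71, 7.74, 10.69 and 5.64 in OVX Xmo 1 to 4, and the rule was not run on that scale. Of 30 groups tested, 9 had such a library. OVX Xmo 3 was the high library in 6 genes, with 1653 CPM of Ttr, 18.6 of Clic6, 51.9 of Kl, 8.35 of Folr1, 6.62 of Aqp1 and 7.26 CPM of Sostdc1. The next library of its group had 214, 3.65, 20.6, 1.66, 0.618 and 2.36 CPM. OVX saline 4 was the high library in 3 genes, with 417 CPM of Ttr against 109 in the next, 3.90 CPM of Clic6 against 2.58 and 3.54 CPM of Folr1 against 1.05. The 10 genes move together, so these are not 9 separate findings. Sham Xmo 4, the highest library of all, did not meet the rule in any of the 10 genes, and sham Xmo 2 had 1506 and sham Xmo 3 had 1870.1 CPM of Ttr. Sham saline has 3 libraries and was not tested.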

How the results depend on the processing

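RLE factors and leaving out mitochondrial genes changed no call among the 10 genes and no count of called genes by over 1.5 times. Genes called in OVX saline against sham saline (1246) became 4799 with library totals alone, 568 without the low-count filter, 178 with a replicate block, 2322 in DESeq2 and 2526 with the choroid plexus covariate. With library totals 4618 of them were higher and 181 lower, and the median of all genes was 0.33. In sham Xmo against sham saline (302) the counts were 3559 (3461 higher, 98 lower, median of all genes 0.32), 108, 37, 1110 and 59 under the same settings, and 6 with only the 2 groups fitted. In OVX Xmo against OVX saline (0) DESeq2 called 3 and the fit of 2 groups 1. In OVX Xmo against sham Xmo (2) DESeq2 called 76, and the replicate block, the covariate and the fit of 2 groups 0 each. In the interaction (83) library totals gave 1182 (41 higher, 1141 lower), no filter 20, the replicate block 11 and DESeq2 852. Genes called in the slope test (76) were 117 with library totals and 344 in DESeq2 (207 up, 137 down).

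Of the 10 genes, OVX saline against sham saline called 1 in DESeq2 (Cldn1), 1 with the covariate (Clic6) and 2 with the 2 groups alone (Clic6 and Cldn1). These fits called 2322, 2526 and 1202 genes in all. With the covariate the median of the 10 became −0.25 in sham Xmo against sham saline and −0.23 in OVX Xmo against sham Xmo. Directions turned for Enpp2 in OVX saline against sham saline (0.47), Ttr (−0.20) and Sostdc1 (−0.34) in OVX Xmo against OVX saline, Ttr (−0.41) and Cldn1 (−0.39) in sham Xmo against sham saline, Ttr (0.15) and Cldn1 (0.29) in OVX Xmo against sham Xmo, and Ttr in the interaction (0.21). These were seen with the covariate, which takes out the shared choroid plexus level, and why single genes turned was not tested. The slope on the mean of the wider list had a median of 0.95, on another scale. The replicate block turned Ttr in the interaction to 0.75 and called none of the 10 genes in the 5 comparisons. Deviations of same-numbered libraries had r from −0.21 to 0.19 (21 pairs), against −0.19 to 0.26 in 63 other pairs. The labels do not say what the number stands for, and a shared batch was not tested.

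Leaving out each library in turn gave 80 to 1706 called genes in OVX saline against sham saline (80 without sham saline 3), 0 to 1 in OVX Xmo against OVX saline, 14 to 673 in sham Xmo against sham saline, 0 to 3 in OVX Xmo against sham Xmo, 6 to 302 in the interaction and 34 to 165 in the slope test. It called 0 to 1 of the 10 genes in OVX saline against sham saline. The median slope ran from 0.40 to 0.48. Values that turned ran from −0.79 to 0.24 for Enpp2 in OVX saline against sham saline, −0.45 to 2.56 for Ttr and −0.31 to 0.71 for Sostdc1 in OVX Xmo against OVX saline, −0.25 to 1.03 for Cldn1 in sham Xmo against sham saline and −2.77 to 0.56 for Ttr in the interaction. Some settings held fewer samples or a covariate, and the cause of each shift was not tested. With 3 or 4 libraries a group and an SE of 1.16 to 1.33 for Ttr in the pairwise comparisons, small changes were not detectable. The lowest levels rest on few counts (4 for Aqp1 in OVX Xmo 4).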

Other observations

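Genes outside the lists also moved with Ttr within groups, 39 of the 76 called, and those named here were chosen after their values were seen. Basement membrane genes were among them, with slopes per log2 unit of Ttr of 0.48 for Col4a3 (edgeR adjusted p = 0.00130), 0.29 for Col4a4 (0.0429), 0.25 for Col18a1 (0.0109), 0.21 for the laminin gene Lama5 (0.0317) and 0.20 for the perlecan gene Hspg2 (0.0460). Junction genes were the claudin Cldn3 (0.50; edgeR adjusted p = 0.0152), Tjp3 (0.36; 0.00538) and Cgnl1 (0.23; 0.0157). The growth factor gene Bmp6 had 0.24 (edgeR adjusted p = 0.0389), and H2-Aa, of the antigen-presenting complex of immune cells, had 0.43 (edgeR adjusted p = 0.0115), from 0.401 to 8.61 CPM over the libraries. Dcx, a marker of young neurons, fell by 0.13 per log2 unit of Ttr (edgeR adjusted p = 0.0314). The smallest p outside the lists was that of Drc7, with a slope of 0.51 (edgeR adjusted p = 4.15e-06). Nek5 (0.31), Ttc21a (0.30), Lrrc23 (0.26) and Catip (0.22) also rose with Ttr, among further genes not named here.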
